A study of Homo sapiens with 17 samples.

Results

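ETS factors are transcription factors that share one DNA-binding domain, the ETS domain, which reads sites built around the letters GGAA. Here 10 of them are described in prostate cancer cells, of 23230 genes in the count tables: ETV1, ETV4, ETV5, ERG, SPDEF, EHF, ELF3, ETS1, ETS2 and ETV6. They were taken by symbol. Of these, 2 were chosen by measured values of these data, namely ETV1 by its near loss in LNCaP-abl and SPDEF by its fall when FOXA1 is silenced. Those 2 patterns are therefore given below as descriptions without a test, and the other members were listed without a value. The members and the gene lists used below were chosen with earlier results of these data known.

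LNCaP is an established human prostate cancer line, labelled androgen dependent, and was used at passages 32 to 34. LNCaP-abl (abl below) is its androgen independent derivative, used at passages 62 to 64. Stocks of LNCaP were grown with 10% serum and stocks of abl with 10% charcoal-stripped serum, so line, passage and stock medium cannot be told apart. For 3 days each line was exposed to 40 nM siRNA, either a control (siControl), one that targets CREB1 (siCREB1) or one that targets FOXA1 (siFOXA1). During that time all cells were in 5% charcoal-stripped serum, from which most steroid hormone has been removed. CREB1 answers cyclic AMP through DNA sites called CRE, and FOXA1 opens closed chromatin at prostate enhancers. The series lists 17 samples, of which 6 are RNA samples, 1 for each line and siRNA. Every RNA sample has 2 count columns, taken here as 2 libraries, which gives 12 libraries in 6 groups of 2. No label says that both came from separate cultures, so p-values measure only the spread between these libraries, which may be technical. These are bulk samples, in which fewer cells of a kind and less RNA per cell cannot be told apart.

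In prostate cancer the ETS family is best known for gene fusions that place ERG, or less often ETV1, ETV4 or ETV5, under the control of an androgen-driven gene. LNCaP is known to carry a different lesion, in which the ETV1 locus is inserted into an intron of MIPOL1, beside FOXA1. SPDEF, EHF and ELF3 belong to the epithelial ETS factors of secretory tissues, ETS1 and ETS2 are closely related factors that ERK kinases switch on by phosphorylation, and ETV6 is a repressor.

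Levels are CPM, the reads of a gene per 1000000 gene reads of its library, corrected between libraries by the trimmed mean of M values. They are compared between groups for one gene at a time, because no gene lengths were used. The libraries held 9092597 to 37314039 gene reads. Both siRNAs lowered their targets. Mean CREB1 CPM under siCREB1 was 41.2% of siControl in LNCaP and 56.9% in abl, and mean FOXA1 CPM under siFOXA1 was 28.5% and 40.1%. All 10 luminal prostate markers examined had reads in every library, with a summed level of 3614 to 4280 CPM in LNCaP and 2395 to 3296 CPM in abl. Among them KLK3, the androgen-driven prostate-specific antigen gene, was at 16.1 to 87.4 CPM in LNCaP and only 0.111 to 0.994 CPM in abl. The first siControl library of each line stood apart in a list of 15 blood-cell markers, which summed to 10.2 CPM in LNCaP and 11.4 CPM in abl against 2.70 to 7.58 CPM in the other 10 libraries. A gene was called when its p from edgeR's quasi-likelihood test, adjusted by the Benjamini-Hochberg method over 15550 genes, was under 0.05. All adjusted p values below come from that test. ERG was too low to be tested, so 9 of the 10 members were tested.

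Promoter sequence from RefSeq (GRCh38.p14) was held for 7 of the 10 members, in 17 windows, and the windows of the 5 genes on which the results turn most are printed. Each window runs 250 bases up to the most upstream listed start, 5′ to 3′ on the gene's own strand, with matches to 5 motifs in capitals. The motifs, searched on both strands, were the CRE palindrome TGACGTCA, its core TGACG, the FOXA sites TGTTTAC and TATTTAC, and the ETS site CCGGAA. The motif TATTTAC was added after the SPDEF window had been seen.
ETV1, chr7:13991426-13991675, minus strand: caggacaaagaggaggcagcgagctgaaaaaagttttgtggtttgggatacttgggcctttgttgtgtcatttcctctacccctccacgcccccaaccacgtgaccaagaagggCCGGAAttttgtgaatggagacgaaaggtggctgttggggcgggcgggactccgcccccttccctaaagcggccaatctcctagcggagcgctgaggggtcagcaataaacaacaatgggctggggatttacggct
SPDEF, chr6:34556330-34556579, minus strand: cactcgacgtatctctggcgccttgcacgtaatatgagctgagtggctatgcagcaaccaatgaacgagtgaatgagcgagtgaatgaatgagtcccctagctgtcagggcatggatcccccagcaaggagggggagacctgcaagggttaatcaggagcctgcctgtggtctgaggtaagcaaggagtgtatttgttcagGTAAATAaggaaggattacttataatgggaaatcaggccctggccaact
EHF, chr11:34624007-34624256, plus strand: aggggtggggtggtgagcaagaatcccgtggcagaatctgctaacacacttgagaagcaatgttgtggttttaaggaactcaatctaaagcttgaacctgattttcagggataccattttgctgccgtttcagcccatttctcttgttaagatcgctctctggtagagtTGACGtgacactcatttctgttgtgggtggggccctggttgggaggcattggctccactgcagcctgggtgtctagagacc
ELF3, chr1:202010337-202010586, plus strand: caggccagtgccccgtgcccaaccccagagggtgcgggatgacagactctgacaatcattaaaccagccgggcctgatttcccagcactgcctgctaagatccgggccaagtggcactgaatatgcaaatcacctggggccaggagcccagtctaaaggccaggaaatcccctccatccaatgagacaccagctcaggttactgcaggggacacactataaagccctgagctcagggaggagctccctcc
ETS2, chr21:38804933-38805182, plus strand: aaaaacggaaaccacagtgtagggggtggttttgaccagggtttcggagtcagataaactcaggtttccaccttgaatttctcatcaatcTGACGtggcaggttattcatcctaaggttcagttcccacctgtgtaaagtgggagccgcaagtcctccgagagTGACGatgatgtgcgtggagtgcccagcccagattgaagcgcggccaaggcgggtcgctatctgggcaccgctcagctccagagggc
In these windows ETV1 holds an ETS site that begins 136 bases before the start. SPDEF holds GTAAATA, the reverse complement of TATTTAC, 49 bases before its start. EHF holds TGACG 81 bases before its start, and ETS2 holds TGACG 160 and 87 bases before its own. The ELF3 window holds 0 of the 5 motifs. Over 35116 promoter windows of this length in the same table, TGACG occurs in 21.2%, CCGGAA in 14.5%, TGTTTAC in 2.98%, TATTTAC in 2.39% and TGACGTCA in 1.65%. A match is a description of the letters, not of binding. Of the 17 member windows, which in part overlap, 5 held TGACG (which TGACGTCA would also hold), 3 of them windows of ETV1. By gene TGACG was found in 3 of 7 members (ETV1, EHF, ETS2), CCGGAA in 1 (ETV1, in 3 windows), TGTTTAC in 1 (EHF, in a window not printed), TATTTAC in 1 (SPDEF) and TGACGTCA in 0.

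**Figure D1:**
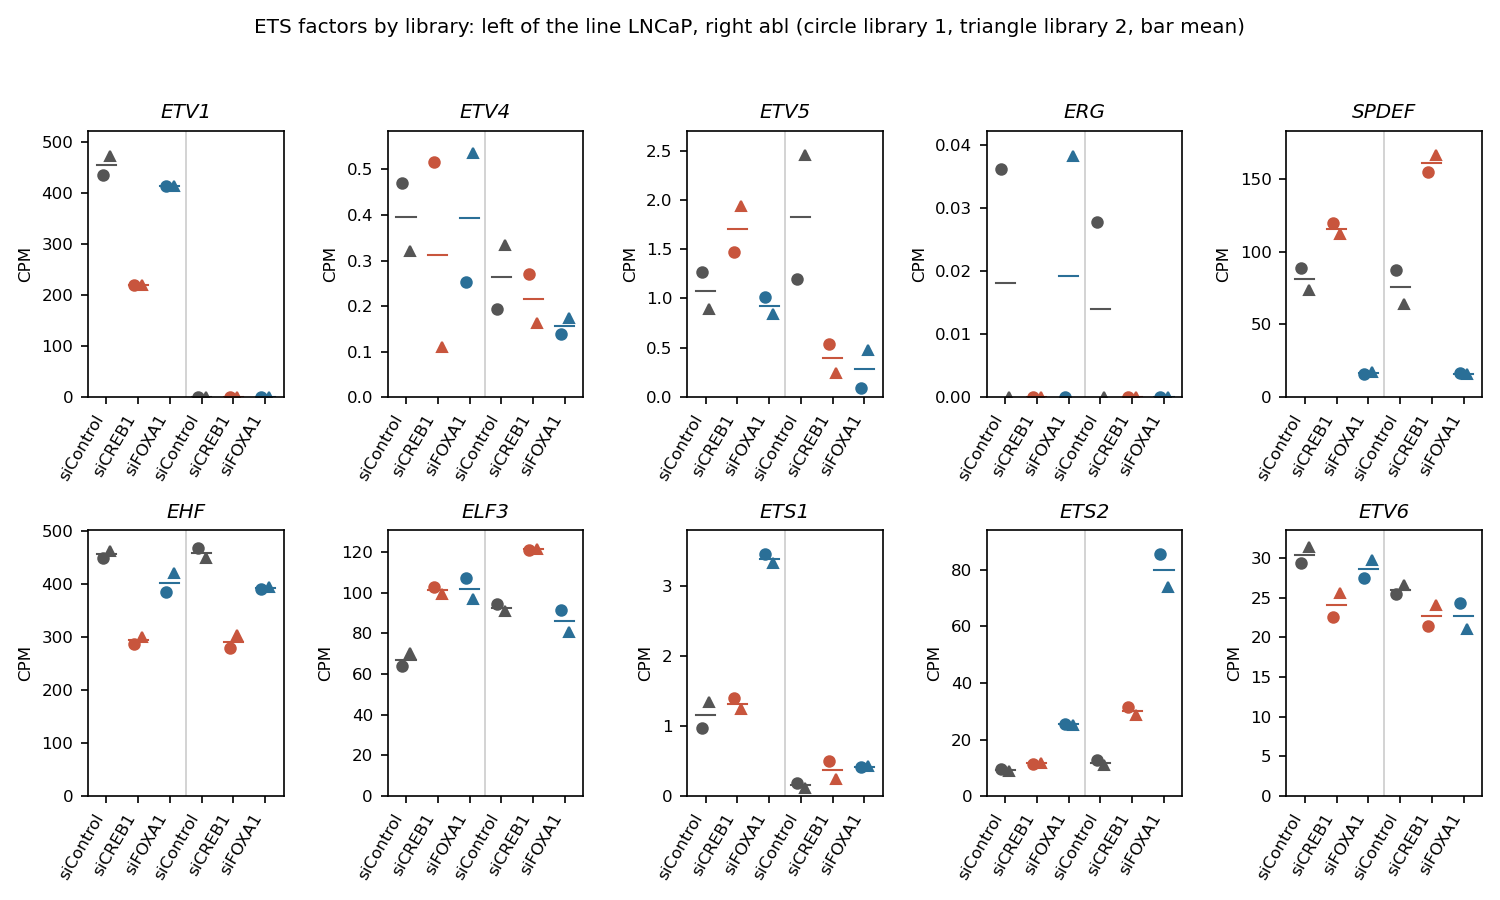
Level of each of the 10 ETS factors in every library (vertical axis, CPM, own scale per gene), with LNCaP left and abl right of the line, library 1 as a circle, library 2 as a triangle and the mean as a bar. ETV1 lies between 219 and 473 CPM in LNCaP and at or near 0 in abl, SPDEF lies at 15.8 to 17.5 CPM under siFOXA1 in both lines, and ETS2 is highest in abl under siFOXA1.

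ETV1, ETV4 and ETV5 form the PEA3 group, factors tied to cell invasion and controlled by ERK signalling. ETV1 was measured at 436 and 473 CPM in LNCaP under siControl, 219.8 and 219.4 CPM under siCREB1, and 414 and 413 CPM under siFOXA1. In abl it was at 0.306 and 0.111 CPM under siControl, 0.0451 and 0 CPM under siCREB1, and 0.414 and 0 CPM under siFOXA1. Every LNCaP library was thus far above every abl library, the pattern for which the gene was chosen. The pooled siControl reads, 19443 in LNCaP and 12 in abl, give a ratio of CPM of 1683. The same ratio was 2063 under siFOXA1, from 20620 and 9 reads. Under siCREB1 it rests on 1 abl read and was 10290. These ratios describe values that chose the gene, rest on few abl reads and are not tested.

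Within LNCaP, silencing CREB1 lowered ETV1 to 48.4% of its siControl level (log2 fold change −1.05, SE 0.11, adjusted p = 8.71e-06). The 2 siCREB1 libraries lay far below the 2 siControl libraries. Silencing FOXA1 left it at 91.1% of siControl (log2 fold change −0.13, SE 0.11, adjusted p = 0.317), although the libraries of those groups did not overlap. ETV1 was lower under siCREB1 than under siFOXA1 by a log2 difference of −0.91 (SE 0.11, adjusted p = 1.18e-05). In abl ETV1 had 0 to 11 reads in a library and passed the filter on low counts only through LNCaP, so no test within abl is given. The abl reads were 12 under siControl, 1 under siCREB1 and 9 under siFOXA1. The siControl to siCREB1 ratio of CPM was 12.5, on too few reads to settle its size. In each abl group nearly all reads came from the first library.

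Genes around both ends of the ETV1 insertion were taken as a list of 12, of which 8 were tested. DGKB, the diacylglycerol kinase gene next to ETV1, fell under siCREB1 in LNCaP (log2 fold change −0.82, SE 0.10, adjusted p = 4.55e-05) and in abl (−0.46, SE 0.12, adjusted p = 0.00693). MIPOL1, the gene that hosts the insertion, also fell under siCREB1, by −0.69 in LNCaP (SE 0.07, adjusted p = 1.21e-05) and −0.50 in abl (SE 0.09, adjusted p = 0.000336). These were the 2 of 8 that were lower in each line, and 0 were higher, near the 19.8% of all tested genes lower in LNCaP and 23.7% in abl. The list's median log2 fold change was −0.13 in LNCaP and −0.23 in abl, against −0.00 and 0.03 over all tested genes. Between the lines under siControl, abl was lower than LNCaP in MIPOL1 (log2 fold change −1.69, SE 0.08, adjusted p = 4.73e-10), in DGKB (−1.27, SE 0.11, adjusted p = 2.34e-07) and in FOXA1 (−0.49, SE 0.08, adjusted p = 0.000129). These 3 were named in the line comparison for their place beside ETV1 after their values were seen.

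ETV4 was close to the limit of detection. It had 3 to 14 reads in each library, 0.109 to 0.535 CPM in LNCaP and 0.138 to 0.334 CPM in abl, and the groups next to each other in order of level all overlapped. It was called in 0 of the 11 comparisons by edgeR and in 0 by DESeq2, and its unadjusted edgeR p was under 0.05 in 0.

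ETV5 was low as well, but its level depended on line and siRNA together. In LNCaP it was at 1.26 and 0.897 CPM under siControl, 1.47 and 1.93 CPM under siCREB1, and 1.01 and 0.841 CPM under siFOXA1. The abl levels were 1.19 and 2.45 CPM under siControl, 0.541 and 0.243 CPM under siCREB1, and 0.0919 and 0.475 CPM under siFOXA1. All 4 abl knockdown libraries lay below the other 8 libraries, and they held 2 to 12 reads each. ETV5 fell in abl under siCREB1 (log2 fold change −1.99, SE 0.52, adjusted p = 0.0055) and under siFOXA1 (−2.40, SE 0.55, adjusted p = 0.00209). Without the second abl siCREB1 library the first of these was −1.51 with an adjusted p of 0.0647. In LNCaP the changes were 0.61 (SE 0.40, adjusted p = 0.26) and −0.27 (SE 0.45, adjusted p = 0.643). The siCREB1 effect differed between the lines by a log2 difference of −2.59, abl minus LNCaP (SE 0.66, adjusted p = 0.0105). For siFOXA1 that difference was −2.12 (SE 0.73, adjusted p = 0.0393), a call lost in 6 of the alternative fits, where its adjusted p ran from 0.0539 to 0.165. Between the lines, abl was below LNCaP under siCREB1 (−2.13, SE 0.49, adjusted p = 0.00165). Under siFOXA1 the difference was −1.66 (SE 0.59, adjusted p = 0.0245), a call lost without the first library of either group (adjusted p = 0.0946 for LNCaP and 0.197 for abl). The gene has an antisense partner, ETV5-AS1, and the library kit does not mark strand, so their reads cannot be told apart.

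ERG, the ETS gene most often fused in prostate cancer, had 3 reads in all 12 libraries together. They fell 1 each in the first siControl library of LNCaP, the second siFOXA1 library of LNCaP and the first siControl library of abl. The groups with 0 reads allow a level of at most 0.055 CPM (LNCaP siCREB1), 0.064 CPM (abl siCREB1) and 0.0668 CPM (abl siFOXA1), taking 3 reads as the limit. FLI1, its close relative, had 4 reads in all.

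SPDEF, a factor of goblet and luminal secretory cells, was at 88.9 and 73.7 CPM in LNCaP under siControl, 120 and 112 CPM under siCREB1, and 15.9 and 17.5 CPM under siFOXA1. The abl libraries were at 87.3 and 63.9 CPM under siControl, 155 and 167 CPM under siCREB1, and 16.6 and 15.8 CPM under siFOXA1. The siFOXA1 libraries were the lowest in each line and overlapped between the lines. The level under siFOXA1 was 20.5% of siControl in LNCaP (log2 fold change −2.29) and 21.0% in abl (−2.25), values that chose the gene and are not tested. What the choice did not use is the response to CREB1 silencing. SPDEF rose under siCREB1 in LNCaP (log2 fold change 0.50, SE 0.12, adjusted p = 0.00371) and by more in abl (1.06, SE 0.12, adjusted p = 5.17e-06), and the 4 siCREB1 libraries lay above the other 8. The effect was larger in abl by a log2 difference of 0.56 (SE 0.16, adjusted p = 0.0228), but that call was lost without any 1 of 4 libraries, with adjusted p from 0.0658 to 0.104. Between the lines SPDEF was at 94.5% of LNCaP in abl under siControl (log2 fold change −0.08, adjusted p = 0.567, or −0.35 with an adjusted p of 0.0213 without the first abl siControl library). It was at 139% under siCREB1 (log2 fold change 0.47, SE 0.11, adjusted p = 0.00225).

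Genes reported to act with or under SPDEF in secretory epithelium made a list of 16, of which 9 were tested. Under siFOXA1 6 of the 9 were lower and 0 higher in LNCaP, and 7 were lower and 1 higher in abl. Over all tested genes 25.5% were lower and 24.4% higher in LNCaP, and 26.5% and 29.9% in abl. The list's median log2 fold change was −1.46 in LNCaP and −0.87 in abl, against −0.01 and 0.03 over all tested genes. AGR2, a protein-folding enzyme of mucus-secreting cells, was the most lowered in LNCaP (log2 fold change −2.47, SE 0.39, adjusted p = 0.000128), from 2.32 ± 0.52 to 0.404 ± 0.085 CPM (SD, n = 2 each). TFF3, a trefoil peptide of mucus, came next in LNCaP (−2.42, SE 0.20, adjusted p = 3.93e-07), from 31.4 ± 0.39 to 5.81 ± 1.9 CPM (SD, n = 2 each). In abl the most lowered were TFF1, another trefoil peptide (−2.50, SE 0.27, adjusted p = 2.6e-06), and ERN2, an unfolded-protein sensor of goblet cells (−1.52, SE 0.37, adjusted p = 0.00312). ERN2 was low there, with means of 1.22 CPM under siControl and 0.422 CPM under siFOXA1, on 55 and 19 reads.

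When CREB1 was silenced the list moved both ways. In LNCaP 2 of 9 were higher and 4 lower, with a median log2 fold change of −0.26, where 17.8% of all genes were higher and 19.8% lower. In abl 5 were higher and 3 lower, with a median of 0.52, where 27.5% of all genes were higher and 23.7% lower. ERN2 fell in both lines, by −1.62 in LNCaP (SE 0.45, adjusted p = 0.0117) and −1.19 in abl (SE 0.35, adjusted p = 0.0121). It was low, with 30 reads under siControl and 12 under siCREB1 in LNCaP, and 55 and 25 in abl. AGR2 fell too, by −0.98 (SE 0.31, adjusted p = 0.023) and −1.18 (SE 0.25, adjusted p = 0.00139). After their values were seen, 2 members were picked out because they were lower under siFOXA1 and higher under siCREB1 in both lines. SYTL2, a granule-trafficking protein, was at 32.1 ± 1.3 CPM under siControl, 52.8 ± 3.7 CPM under siCREB1 and 11.7 ± 0.56 CPM under siFOXA1 in LNCaP (SD, n = 2 each). Its log2 fold change was 0.72 under siCREB1 and −1.46 under siFOXA1 in LNCaP, and 0.52 and −1.16 in abl, with adjusted p of at most 5.25e-05. CREB3L4, an androgen-regulated factor of the secretory pathway, changed by 0.27 and −0.26 in LNCaP and by 0.35 and −0.38 in abl, with adjusted p of at most 0.00271.

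**Figure D2:**
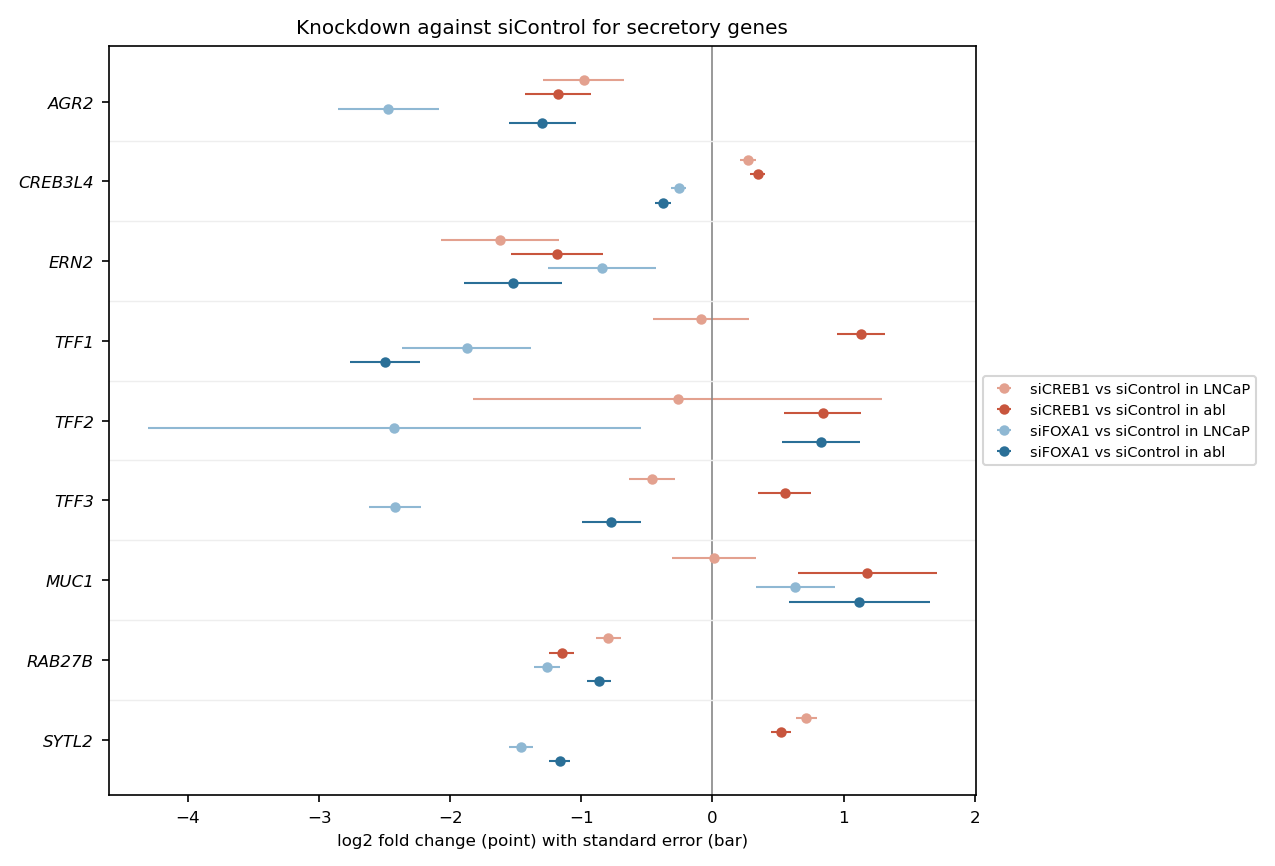
Log2 fold change of 9 secretory genes (points, horizontal axis) with its standard error (bars) for siCREB1 and siFOXA1 against siControl in LNCaP (pale) and abl (dark). Under siFOXA1, 6 of 9 were called lower in LNCaP and 7 in abl, while the siCREB1 changes lie on both sides of 0.

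EHF, a factor that keeps prostate epithelium differentiated, had the same order of levels in both lines. In LNCaP it was at 450 and 463 CPM under siControl, 287 and 301 CPM under siCREB1, and 385 and 421 CPM under siFOXA1. In abl it was at 469 and 449 CPM, 279 and 304 CPM, and 392 and 395 CPM. Libraries of the 2 lines overlapped under each siRNA, while the siControl, siFOXA1 and siCREB1 libraries did not overlap with each other. EHF fell under siCREB1 to 64.4% of siControl in LNCaP (log2 fold change −0.64, SE 0.06, adjusted p = 7.98e-06) and to 63.6% in abl (−0.65, SE 0.07, adjusted p = 2.02e-06). The siCREB1 effects differed between the lines by a log2 value of −0.02 (SE 0.09, adjusted p = 0.918). Under siFOXA1 the decrease was smaller, to 88.3% in LNCaP (−0.18, SE 0.06, adjusted p = 0.0326) and 85.7% in abl (−0.22, SE 0.06, adjusted p = 0.00922). The LNCaP call was lost without any 1 of 3 libraries, with adjusted p from 0.0907 to 0.258, and the abl call without the first siControl library (0.0758).

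ELF3, an epithelial factor induced in inflammation, was at 63.8 and 70.2 CPM in LNCaP under siControl, 103 and 99.5 CPM under siCREB1, and 107 and 96.9 CPM under siFOXA1. Its abl levels were 94.3 and 91.1 CPM, 121 and 122 CPM, and 91.3 and 80.9 CPM. LNCaP siControl held the lowest libraries of all, and abl siCREB1 the highest. ELF3 rose under siCREB1 in LNCaP (log2 fold change 0.60, SE 0.08, adjusted p = 4.48e-05) and in abl (0.39, SE 0.08, adjusted p = 0.000672). Under siFOXA1 it rose in LNCaP (0.61, SE 0.08, adjusted p = 1.74e-05), whereas in abl the change was −0.11 (SE 0.08, adjusted p = 0.24). That difference between the lines was −0.72, abl minus LNCaP (SE 0.11, adjusted p = 0.000172). Under siControl abl stood above LNCaP (0.47, SE 0.08, adjusted p = 9.32e-05), and under siFOXA1 below it (−0.24, SE 0.07, adjusted p = 0.011). The second of these was lost without the first LNCaP siFOXA1 library (−0.17, adjusted p = 0.121) or the second abl one (−0.16, adjusted p = 0.139). An antisense gene, ELF3-AS1, could share reads with it.

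ETS2, an ERK-responsive factor, rose under siFOXA1 in both lines, and by more in abl. In LNCaP it was at 9.64 and 8.91 CPM under siControl, 11.3 and 11.8 CPM under siCREB1, and 25.7 and 25.1 CPM under siFOXA1. The abl libraries had 12.7 and 11.0 CPM under siControl, 31.6 and 28.6 CPM under siCREB1, and 85.8 and 74.1 CPM under siFOXA1. Of the groups next to each other in order of level, only abl siControl and LNCaP siCREB1 overlapped. Silencing FOXA1 raised ETS2 2.72-fold in LNCaP (log2 fold change 1.44, SE 0.11, adjusted p = 1.32e-07) and 6.57-fold in abl (2.72, SE 0.10, adjusted p = 1.36e-10). The log2 effect was larger in abl by 1.27 (SE 0.15, adjusted p = 2.21e-05). Silencing CREB1 raised it 2.48-fold in abl (1.31, SE 0.10, adjusted p = 2.56e-07). In LNCaP that change was 0.31 (SE 0.11, adjusted p = 0.0444), a call lost in DESeq2 (adjusted p = 0.0599) and without any 1 of the 4 libraries compared (0.0666 to 0.163). The siCREB1 effect was larger in abl by 1.00 (SE 0.15, adjusted p = 0.000372). Under siControl abl exceeded LNCaP by 0.38 (SE 0.12, adjusted p = 0.0109), or by 0.24 without the first abl siControl library (adjusted p = 0.249). An antisense gene, ETS2-AS1, could share its reads.

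ETS1, the relative of ETS2 best known from lymphocytes and vessels, was low in both lines and lower in abl. In LNCaP it was at 0.975 and 1.35 CPM under siControl, 1.399 and 1.24 CPM under siCREB1, and 3.46 and 3.33 CPM under siFOXA1. Levels in abl were 0.195 and 0.111 CPM, 0.496 and 0.243 CPM, and 0.414 and 0.432 CPM, from 1 to 11 reads in each library. All 6 LNCaP libraries lay above all 6 abl libraries. The abl level was 16.2% of LNCaP under siControl (log2 fold change −2.63, SE 0.44, adjusted p = 0.00013), 27.8% under siCREB1 (−1.85, SE 0.35, adjusted p = 0.000369) and 12.6% under siFOXA1 (−2.99, SE 0.30, adjusted p = 1.08e-06). Silencing FOXA1 raised ETS1 3.01-fold in LNCaP (1.59, SE 0.25, adjusted p = 0.000151). In abl the change was 1.23 (SE 0.53, adjusted p = 0.0628), and the effects were not found to differ (log2 difference −0.36, SE 0.66, adjusted p = 0.726). Under siCREB1 the changes were 0.23 in LNCaP (adjusted p = 0.554) and 1.02 in abl (adjusted p = 0.141). A list of 9 endothelial markers summed to 30.0 and 33.3 CPM in LNCaP siControl, 3.82 and 5.06 CPM in LNCaP siFOXA1 and 2.11 to 3.34 CPM in abl, and 5 to 9 of them had reads. Nearly all of the LNCaP siControl sum was VWF, at 30.7 and 27.7 CPM, while CDH5, a defining endothelial gene, had 0 or 1 read in every library. The summed level moved opposite to ETS1 under siFOXA1 and the same way between the lines, and its part in the result was not tested.

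ETV6, a repressor of the family, changed little. In LNCaP it was at 29.4 and 31.4 CPM under siControl, 22.5 and 25.6 CPM under siCREB1, and 27.5 and 29.8 CPM under siFOXA1. The abl values were 25.5 and 26.5 CPM, 21.5 and 24.0 CPM, and 24.4 and 21.1 CPM. The siCREB1 libraries were below siControl in both lines, but most neighbouring groups overlapped. ETV6 fell under siCREB1 in LNCaP (log2 fold change −0.33, SE 0.10, adjusted p = 0.0154), a call lost without the second siControl library (adjusted p = 0.067) or the first siCREB1 library (0.136). The abl change was −0.18 (SE 0.10, adjusted p = 0.15). Under siFOXA1 the changes were −0.08 (adjusted p = 0.511) and −0.19 (adjusted p = 0.135). It was lower in abl than in LNCaP under siFOXA1 (−0.33, SE 0.10, adjusted p = 0.00898), a call lost without the second library of either group (adjusted p = 0.0787 for LNCaP and 0.108 for abl).

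**Figure D3:**
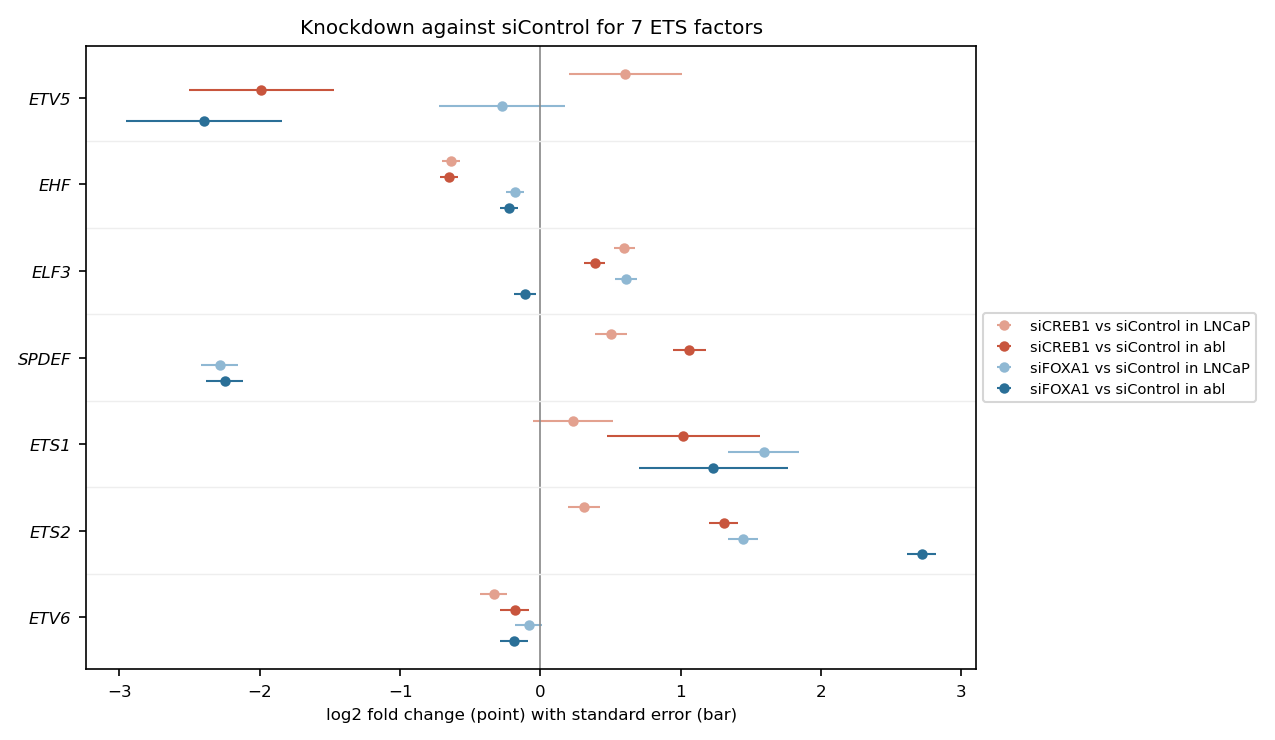
Log2 fold change against siControl (points, horizontal axis) with its standard error (bars) for 7 ETS factors, siCREB1 in red and siFOXA1 in blue, LNCaP pale and abl dark. ETS2 lies right of 0 in all 4 comparisons, EHF and ETV6 lie left of 0, SPDEF lies right under siCREB1 and left under siFOXA1, and ETV5 falls to about −2 in abl. The SPDEF points under siFOXA1 are among the values that chose the gene.

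Counted over the members, siCREB1 raised 3 of 9 in LNCaP (SPDEF, ELF3, ETS2) and lowered 3 (ETV1, EHF, ETV6). Of all 15550 tested genes 37.6% were called in that comparison, 17.8% higher and 19.8% lower. In abl, leaving out ETV1 for its low counts, it raised 3 of 8 (SPDEF, ELF3, ETS2) and lowered 2 (ETV5, EHF), against 51.2% of all genes, 27.5% higher and 23.7% lower. Leaving out SPDEF, siFOXA1 raised 3 of 8 in LNCaP (ELF3, ETS1, ETS2) and lowered 1 (EHF), against 49.8% of all genes, 24.4% higher and 25.5% lower. In abl, leaving out ETV1 too, it raised 1 of 7 (ETS2) and lowered 2 (ETV5, EHF), against 56.5%, 29.9% higher and 26.5% lower. The knockdowns of a line share its siControl libraries. On only 7 to 9 genes, the called share of the members was above the background under siCREB1 in LNCaP, and closer to it in the other 3 comparisons. The siCREB1 share in LNCaP depends on single libraries. Its ETS2 and ETV6 calls were both lost without the second LNCaP siControl library, and both without the first LNCaP siCREB1 library.

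Leaving out ETV1, abl was higher than LNCaP in 2 of 8 members under siControl and lower in 1, against 63.6% of all genes called, 30.5% higher and 33.1% lower. Under siCREB1 3 were higher and 2 lower (background 61.7%, 31.6% higher and 30.1% lower). Under siFOXA1 1 was higher and 4 lower (background 61.0%, 30.2% higher and 30.9% lower), 5 called in all against 3 without the first LNCaP or the second abl siFOXA1 library. The effect of siCREB1 differed between the lines in 3 of these 8 members (ETS2, SPDEF and ETV5, with only ETS2 left without the second abl siCREB1 library), where 25.5% of all genes were called, 14.8% with the larger value in abl and 10.8% with the larger in LNCaP. The effect of siFOXA1 differed in 3 of 7, SPDEF also left out (ETS2, ELF3 and ETV5), where 32.6% were called, 17.9% with the larger value in abl and 14.7% with the larger in LNCaP. Both knockdowns were also set against each other, with SPDEF not counted because its siFOXA1 level chose it (log2 difference siCREB1 minus siFOXA1 2.79 in LNCaP and 3.31 in abl, not tested). In LNCaP siCREB1 was below siFOXA1 in 5 of the other 8 tested members (ETV1, EHF, ETS1, ETS2, ETV6) and above it in 0, with 43.0% of all genes called, 20.6% above and 22.5% below. The ETV6 call (log2 difference −0.25, SE 0.10, adjusted p = 0.0492) was lost under 5 alternatives, with adjusted p from 0.0604 to 0.307. In abl, without SPDEF and ETV1, siCREB1 was above siFOXA1 in ELF3 and below it in EHF and ETS2, with 41.0% of all genes called, 20.0% above and 21.0% below.

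Outside the 10, the ETS family holds 18 more genes in the tables, of which 14 were tested. Under siCREB1 0 of the 14 were higher and 3 lower in LNCaP, and 1 higher and 3 lower in abl. Under siFOXA1 3 were higher and 3 lower in LNCaP, and 1 higher and 5 lower in abl. The lower genes include SPI1 in each of these counts, a gene with few reads that is described below. The 3 higher under siFOXA1 in LNCaP include ETV7, which also had few reads and is described with it. Over all tested genes 17.8% were higher and 19.8% lower under siCREB1 in LNCaP, 27.5% and 23.7% in abl, and under siFOXA1 24.4% and 25.5% in LNCaP and 29.9% and 26.5% in abl. The median log2 fold changes of the 14 were −0.11 and 0.12 under siCREB1 and −0.07 and −0.16 under siFOXA1. Between the lines under siControl 4 of the 14 were higher in abl (ELF2, ELF5, ELK3 and ELK4) and 2 lower (ELF4 and ERF). Of all tested genes 30.5% were higher and 33.1% lower in that comparison.

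ELF5 is a factor of mammary alveoli and the neighbour of EHF on chromosome 11, with 0 protein-coding genes between them. Among the tested family genes it stood highest in abl over LNCaP, the direction opposite to ETV1. It was at 0.686 and 0.705 CPM in LNCaP under siControl, 0.589 and 0.584 CPM under siCREB1, and 1.64 and 1.57 CPM under siFOXA1. In abl it was at 37.2 and 34.9 CPM, 46.2 and 48.1 CPM, and 64.2 and 62.2 CPM. Every abl library was above every LNCaP library, and the log2 difference under siControl was 5.70 (SE 0.13, adjusted p = 1.89e-13). ELF5 rose under siFOXA1 in LNCaP (1.21, SE 0.21, adjusted p = 0.000282) and abl (0.80, SE 0.07, adjusted p = 4.52e-07), and under siCREB1 in abl (0.38, SE 0.07, adjusted p = 0.000562). EHF next to it fell under both siRNAs, as given above.

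ELK4, a ternary complex factor that works with SRF, was lowered by both siRNAs. It was at 158 and 139 CPM in LNCaP under siControl, 90.3 and 86.2 CPM under siCREB1, and 46.0 and 56.9 CPM under siFOXA1. Its levels in abl were 224 and 223 CPM, 161 and 168 CPM, and 73.6 and 70.0 CPM. No knockdown library reached the siControl libraries of its line. The siFOXA1 changes were −1.53 in LNCaP (SE 0.09, adjusted p = 1.7e-08) and −1.64 in abl (SE 0.09, adjusted p = 4.63e-09). SLC45A3, the prostein gene beside ELK4, with which it is known to form read-through transcripts, fell under siFOXA1 by −1.58 in LNCaP (SE 0.17, adjusted p = 5.68e-06) and −2.37 in abl (SE 0.19, adjusted p = 1.83e-07). Under siCREB1, SLC45A3 changed by 0.21 in LNCaP (adjusted p = 0.324) and rose by 0.53 in abl (adjusted p = 0.0144), while ELK4 fell by 0.75 and 0.45 on the log2 scale. Reads of such joined transcripts cannot be told apart from those of ELK4 itself in these counts.

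GABPA, the ETS subunit of the GABP complex that serves housekeeping and mitochondrial genes, was at 55.5 and 50.2 CPM in LNCaP under siControl, 37.9 and 31.3 CPM under siCREB1, and 40.2 and 39.4 CPM under siFOXA1. In abl the levels were 61.8 and 56.1 CPM, 35.7 and 33.5 CPM, and 33.4 and 38.6 CPM. The knockdown libraries lay below siControl throughout. It fell by 0.61 and 0.78 on the log2 scale under siCREB1 (adjusted p = 0.000313 in LNCaP and 2.05e-05 in abl) and by 0.41 and 0.72 under siFOXA1 (adjusted p = 0.00326 and 3.14e-05).

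ETV7, a relative of ETV6, was at 0.144 and 0 CPM in LNCaP under siControl and at 1.90 and 1.64 CPM under siFOXA1. Those levels stand on 4 and 0 reads and on 45 and 43 reads. In abl it was at 0.111 and 0 CPM under siControl and 0.598 and 0.0432 CPM under siFOXA1. ETV7 passed the filter on low counts mainly through the LNCaP siFOXA1 libraries, where it was highest, so its test is not given. SPI1, the myeloid ETS factor, held 39 and 30 reads in the first siControl libraries of LNCaP and abl and 0 to 11 reads elsewhere. It passed the filter on low counts through those siControl libraries, so no test of it is given. SPI1 drew its siControl level mostly from 1 library per line. It was at 1.41 CPM in the first and 0.320 CPM in the second siControl library of LNCaP, and at 0.833 and 0.334 CPM in those of abl. The first siControl libraries were those with the higher blood-cell marker sums. CSF3R was at 2.75 CPM there in LNCaP and 2.42 CPM in abl against at most 0.223 CPM elsewhere. Not every marker was highest there. S100A9 was at 2.24 and 2.45 CPM in these libraries and 2.49 to 4.41 CPM under siFOXA1. PTPRC in abl was at 1.78 CPM there and 3.88 and 3.04 CPM under siCREB1. Of the 15 markers 9 and 11 had reads in these libraries and 2 to 6 in the others. That count was not corrected for depth, and these were the deepest libraries of their lines (27555950 and 37314039 gene reads). The part of the blood-cell markers in the SPI1 levels was not tested. ELF4 was lower in abl than in LNCaP under siControl (log2 fold change −0.78, SE 0.16, adjusted p = 0.000641). The other 8 tested were ELF1, ELF2, ELK1, ELK3, ERF, ETV2, ETV3 and FEV. ETV3L, FLI1, SPIB and SPIC held at most 40 reads over all libraries and were not tested.

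**Figure D4:**
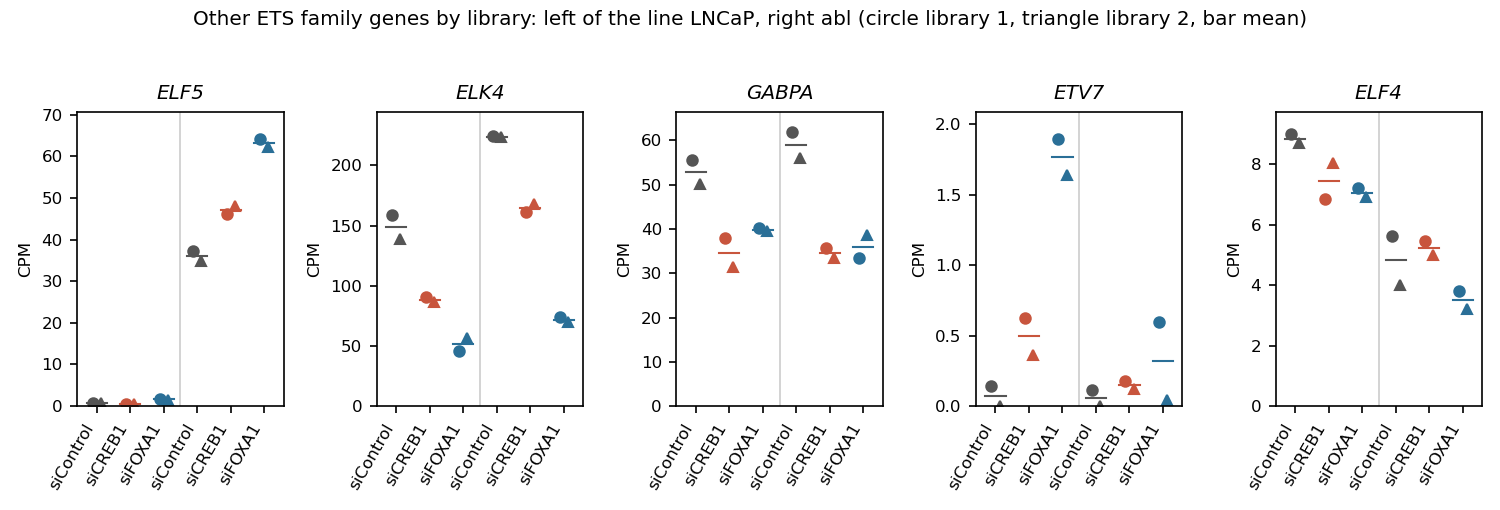
Level of 5 further ETS genes in every library (vertical axis, CPM, own scale per gene), LNCaP left and abl right of the line, library 1 as a circle, library 2 as a triangle and the mean as a bar. ELF5 is at 34.9 to 64.2 CPM in abl against at most 1.64 CPM in LNCaP, and ELK4 and GABPA are below siControl under both siRNAs.

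Proteins that control ETS factors made a list of 16 symbols, of which 15 were in the tables and tested. They include CIC, the repressor of the PEA3 genes, its partners ATXN1 and ATXN1L, and RFWD2 (COP1), which marks PEA3 proteins for degradation. Under siCREB1 1 was higher and 6 lower in LNCaP, and 3 higher and 6 lower in abl. Under siFOXA1 3 were higher and 2 lower in LNCaP, and 2 higher and 6 lower in abl. The share of all tested genes called, in either direction, was 37.6% and 51.2% under siCREB1 and 49.8% and 56.5% under siFOXA1. ATXN1 was the most changed in each, with log2 fold changes of −0.97 (SE 0.10, adjusted p = 1.21e-05) and −1.72 (SE 0.10, adjusted p = 2.3e-08) under siCREB1 in LNCaP and abl. Under siFOXA1 ATXN1 fell by 1.13 (SE 0.11, adjusted p = 1.27e-06) and 1.60 (SE 0.10, adjusted p = 2.22e-08) on the log2 scale. CIC itself was not called under either knockdown, with changes from −0.10 to 0.26 and adjusted p from 0.066 to 0.824. Between the lines it was called lower in abl under each siRNA, with means of 49.6 CPM in abl and 78.6 CPM in LNCaP under siControl.

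Genes that follow ERK activity, many of them also PEA3 targets, made a list of 15 with 14 tested. Under siCREB1 0 were higher and 4 lower in LNCaP, and 1 higher and 5 lower in abl. Under siFOXA1 5 were higher and 4 lower in LNCaP, and 3 higher and 5 lower in abl. In LNCaP siFOXA1 the most changed were DUSP5, a phosphatase that restrains ERK (log2 fold change 1.89, SE 0.16, adjusted p = 5.67e-07), and EGR1, an immediate early factor (1.70, SE 0.24, adjusted p = 4.76e-05). DUSP4, another ERK phosphatase, rose in abl siFOXA1 (1.69, SE 0.15, adjusted p = 3.36e-07). SPRY4 was 1 of the 5 called lower in that comparison, from a mean of 0.710 to 0.0892 CPM on 27 and 4 reads. Under siCREB1 CCND1, the cyclin D1 gene, fell in LNCaP (−1.40, SE 0.09, adjusted p = 1.06e-07), and in abl EGR1 fell (−1.38, SE 0.39, adjusted p = 0.00853) and SPRED1, a Ras inhibitor (−1.06, SE 0.16, adjusted p = 0.000107). The kinases and adaptors of the pathway itself, 15 genes all tested, had 1 higher and 6 lower under siCREB1 in LNCaP, 2 and 7 in abl, and 2 and 6 and 2 and 7 under siFOXA1. Beside the lower counts of both lists stand 19.8% and 23.7% of all tested genes lower under siCREB1, and 25.5% and 26.5% under siFOXA1. Higher were 17.8% and 27.5% of all genes under siCREB1, and 24.4% and 29.9% under siFOXA1.

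Known invasion targets of ETS factors made a list of 15, of which 8 were tested. The matrix protease gene MMP10 fell in LNCaP under siCREB1 (log2 fold change −1.50, SE 0.20, adjusted p = 6.58e-05). It was alone in being called lower there, while 3 were called higher. Among these was the chemokine receptor gene CXCR4, from a mean of 0.714 to 1.54 CPM. Under siFOXA1 CXCR4 rose in LNCaP (2.61, SE 0.31, adjusted p = 1.31e-05) and in abl (2.31, SE 0.41, adjusted p = 0.000255). Its abl siControl level rests on 17 reads, with 0 and 0.472 CPM in the libraries, against 83 reads and a mean of 1.85 CPM under siFOXA1. The collagenase gene MMP13 fell in abl under siFOXA1 (−2.42, SE 0.24, adjusted p = 1.14e-06). In LNCaP 3 of 8 were higher and 1 lower under siCREB1, and 1 higher and 2 lower under siFOXA1. In abl 1 was higher and 1 lower under siCREB1, and 3 higher and 2 lower under siFOXA1. Among all tested genes of LNCaP 17.8% were higher and 19.8% lower under siCREB1, and 24.4% and 25.5% under siFOXA1. The shares in abl were 27.5% and 23.7%, and 29.9% and 26.5%.

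Genes with a pattern most like ETV1 were sought among 190 genes with a comparable range, by Pearson's r of log2(CPM + 1) over the 12 libraries, given as a description. The 5 highest were EFNB2 (r = 0.9987), PXDN (0.9976), BMPR1B (0.9972), LDHB (0.9971) and DSC2 (0.9971). All 5 had every LNCaP group mean far above every abl group mean, and all genes compared share the libraries. Within the 6 LNCaP libraries r was 0.970 for PXDN, 0.904 for EFNB2 and 0.699 for DSC2. PXDN, a matrix peroxidase, was at 188 CPM under siControl, 61.7 CPM under siCREB1 and 129 CPM under siFOXA1 in LNCaP and at most 0.153 CPM as a group mean in abl. For SPDEF, among 2652 genes, the 5 highest were ZCCHC24 (r = 0.988), BCAT2 (0.967), TGM3 (0.965), ARHGAP17 (0.963) and RPLP1 (0.960). ZCCHC24 kept r at 0.997 within each line, with means of 42.8, 58.4 and 10.9 CPM in LNCaP and 36.7, 65.2 and 14 CPM in abl under siControl, siCREB1 and siFOXA1.

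The authors' deposited tables of changed genes list these ETS factors in 19 rows over the 4 knockdown comparisons. All 19 have the same sign as the values here, and the largest difference from the authors' deposited table was 0.0597 on the log2 scale. Both sets come from the same libraries and from edgeR, so the match checks the computation only. The rows include SPDEF under siFOXA1, which chose the gene, and ETV1 in abl, on few reads. They leave out ETS2 under siCREB1 and EHF under siFOXA1 in LNCaP, both called here.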

How the data were processed

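RNA sequencing libraries from TruSeq RNA v2 kits, which do not mark strand, were analysed. Per the submitters' processing notes, the tools were CASAVA 1.8, TopHat2 2.0.8, Bowtie2 2.1.0, HTSeq 0.5.3p9 and edgeR 3.0.6 on hg19. The authors deposited whole-number read counts per gene, not normalized, with 2 columns for each RNA sample. Their deposited tables of changed genes give log2 fold changes and FDR values, which were used only to set beside the values computed here. Lines that name no gene were left out: reads in no feature made up 54.8% to 58.3% of each library and ambiguous reads 0.774% to 0.924%. The 11 ChIP samples were not used here.

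Counts of all 12 libraries were fitted together with edgeR 4.0.16 in R 4.3.3 (TMM, filterByExpr, quasi-likelihood F-test), which left 15550 genes, 6 residual degrees of freedom and a common biological coefficient of variation of 0.0625. P-values were adjusted by the Benjamini-Hochberg method in each of 11 comparisons and called under 0.05. Standard errors were derived from the log2 fold change and F. Ratios of CPM for ETV1 were taken from pooled reads and carry no test. The upper limits for ERG cover counting error only. Alternatives were DESeq2 1.42.0, DESeq2 size factors, no filter, fits on only the groups compared, a replicate block and leaving out libraries.

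The members and the 13 gene lists were chosen with earlier results of these data known. All members were named, with other ETS genes that passed the filter. From other lists, the 2 called genes of largest change per comparison could be named, with exceptions marked. Likeness to ETV1 and SPDEF was ranked by Pearson's r, and the 5 highest were named. Results that need positions of peaks near genes were not made.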

Additional observations from a re-analysis of the deposited data

Results flagged for a closer look

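The response to a knockdown differed between the lines, by the test of the difference itself in edgeR, in 6 cases among the ETS factors. All values are log2 effects in abl minus those in LNCaP.

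For siCREB1, ETS2 differed by 1.00 (adjusted p = 0.000372), with effects of 1.31 in abl and 0.31 in LNCaP. SPDEF differed by 0.56 (adjusted p = 0.0228), with effects of 1.06 and 0.50, a call lost when any of several single libraries was left out. ETV5 differed by −2.59 (adjusted p = 0.0105), with effects of −1.99 and 0.61 on 6 to 53 reads per library. This ETV5 call was lost without the second abl siCREB1 library.

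For siFOXA1, ETS2 differed by 1.27 (adjusted p = 2.21e-05), with effects of 2.72 in abl and 1.44 in LNCaP. ELF3 differed by −0.72 (adjusted p = 0.000172), since it rose in LNCaP and was not called in abl. ETV5 differed by −2.12 (adjusted p = 0.0393), with effects of −2.40 in abl and −0.27 in LNCaP on 2 to 43 reads per library. That ETV5 call was lost in several alternative fits, as given above.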

How the results depend on the processing

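Over 91 single-gene results and 930 alternative values, 879 kept their side of the threshold. Another 45 kept the direction but lost the call, 6 gained a call, and 0 reversed direction where either value was called. A change of sign between uncalled values was not counted as a reversal and would fall among the 879. Leaving out 1 library at a time moved the count of members called between the lines under siFOXA1 (5 with all libraries) from 3 (without the first LNCaP or the second abl siFOXA1 library) to 4, and the count whose siCREB1 effect differed between the lines (3 with all libraries) from 1 (without the second abl siCREB1 library) to 3. A group reduced to 1 library was assumed to vary like the other groups. Depth limits ETV4 (3 to 14 reads per library), ERG (0 or 1) and, in abl, ETV1 (0 to 11), ETS1 (1 to 11) and ETV5 under the knockdowns (2 to 12). Column names of the groups share the numbers 1 and 2, but deviations of same-numbered libraries correlated at −0.047 to 0.231 over 15 pairs of groups, so the numbers were not taken to pair libraries. With the replicate block, 6 members were called under siCREB1 in LNCaP, as without it, and it changed no call of a member. Settings for peaks near members were not run, because no annotation of the peaks' build was used here.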
